A study of Mus musculus with 18 samples.

Results

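The genes described here are 46 genes of DNA replication and S phase. Earlier results of these data were known, but the choice was by name from the machinery that copies the genome, not by values. Of the 46 genes, 45 were measured among the 18193 genes of the arrays, since Chaf1a had no probe set assigned to it alone. Each was measured by the probe set with the highest mean over the 18 arrays. A filter on low values kept 44 of the 45, and 10916 genes in all, for testing; Tyms, the thymidylate synthase gene, fell below it, at 5.34 to 7.08 over the 18 arrays on the log2 signal scale. RNA was measured in 3 mouse lung carcinoma cell lines named A2C12, betaD5 and cRAF_cMYC, each divided into side population (SP) cells, which pump out a DNA-binding dye, and non-SP cells, with 3 arrays for each of the 6 groups of line and fraction. All 3 lines grew out of lung tumours of mice 8 months old that carried both a c-myc and a c-raf transgene, transformed spontaneously, and were grown in the same serum-containing medium, so that every group shares both transgenes and there is no normal lung cell among the samples. The labels do not say what promoter drove the transgenes, nor whether arrays with different numbers came from separate cultures, so the p-values measure the spread between these samples, which may be technical. The study compared SP with non-SP cells; the comparison of the lines follows from the same groups.

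Replication begins when the origin recognition complex, with Cdc6 and Cdt1, loads the ring of Mcm proteins on DNA, a step called licensing that geminin blocks outside its window. Cdc45 and the GINS complex then turn that ring into the active helicase, and polymerases, the clamp Pcna and its loader copy the opened strands while ribonucleotide reductase, thymidine kinase and dUTPase supply clean nucleotides. Many of these genes are transcribed together at the G1/S boundary under E2F factors, and cyclin E, with its kinase, drives cells across that boundary.

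Promoters of members are shown first because the group is often described by its shared E2F sites. RefSeq promoters (build GRCm38.p6) were found for 38 of the 46 members, with 43 starts among them; no entry was matched for Mcm4, Gins1, Gins2, Gins4, Pole, Rfc2, Ccne2 and Gmnn. The 250 bases before each start were searched on both strands for the E2F motif forms GCGGGAA and GCGCCAA. One or both forms stood in 15 of the 43 member promoters, which is 34.9%, against 5.62% of all 32851 promoters of the same length. The form GCGGGAA alone was in 27.9% of member promoters against 3.82% of all, and GCGCCAA in 9.3% against 1.97%. The NF-Y motif CCAAT can overlap the form GCGCCAA, since that form followed by T contains it, so 1 site can count for both; CCAAT was in 58.1% of member promoters against 33.8% of all. The motif TTTGAA, the core of the cell cycle homology region of mitotic promoters, was in 9.3% of member promoters against 16% of all. In 23 promoters of a list of 26 mitosis genes, 13.0% held an E2F form, 34.8% TTTGAA and 82.6% CCAAT. There TTTGAA was more frequent than an E2F form, unlike in the members, while each of these shares was above that of all promoters. A match is a description of letters and was not tested as a binding site in these cells. The 120-base windows of Hells, Mcm7 and Pola1 are printed as the members described in full below that held an E2F form, on the strand of the gene, with every E2F match of the window in capitals (TTCCCGC is GCGGGAA read on the other strand). The Hells window lies at chr19:38930870-38930989 (+), that of Mcm7 at chr5:138171949-138172068 (-) and that of Pola1 at chrX:93632225-93632344 (-).
Hells: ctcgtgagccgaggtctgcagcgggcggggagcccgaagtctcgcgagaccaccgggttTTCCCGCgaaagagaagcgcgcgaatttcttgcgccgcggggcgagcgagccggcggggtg
Mcm7: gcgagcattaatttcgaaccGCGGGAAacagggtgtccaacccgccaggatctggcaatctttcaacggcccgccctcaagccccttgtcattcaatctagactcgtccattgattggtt
Pola1: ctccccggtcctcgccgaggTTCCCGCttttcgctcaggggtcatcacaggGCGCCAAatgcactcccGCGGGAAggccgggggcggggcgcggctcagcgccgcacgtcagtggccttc
The match in Hells began 61 bases before the start and that in Mcm7 165 bases before it. Mcm7 also had another start, not printed, with a GCGGGAA match on the other strand 113 bases before it. It therefore counts more than once among the member promoters with an E2F form. Pola1 held 3 matches, at 169, 138 and 121 bases before the start. No E2F form was found in this window for Mcm2, Cdt1 or Dut, whose levels are described below.

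Before the levels are read, 2 pairs of arrays need to be named. Both arrays labelled betaD5 with number 1 correlated at most 0.967 and 0.963 with other betaD5 numbers but at most 0.989 and 0.988 with a cRAF_cMYC array, over all probe sets except the controls. Both arrays labelled cRAF_cMYC with number 3 correlated at most 0.969 with other cRAF_cMYC numbers but at most 0.990 and 0.989 with a betaD5 array. No A2C12 array exceeded 0.959 with another line. These pairs are called the pairs labelled betaD5 1 and cRAF_cMYC 3, and results that rest on them are given with and without them. Whether their labels were exchanged cannot be told from the files; the labels are used as given, and every betaD5 and cRAF_cMYC value with all arrays depends on them. The 3'/5' signal ratios of Gapdh and Actb, which rise when RNA is shortened, were highest in the SP arrays betaD5 2 (0.76 and 1.06, log2) and betaD5 3 (0.97 and 0.95). Next came the non-SP array cRAF_cMYC 2 (0.56 and 0.74), whose SP partner stood at 0.0016 and 0.31, so that pair shifted the other way. Of 10 markers of lung epithelium, the tissue of the labelled tumour type, 5 had a mean above the filter level of 6.54: Epcam (8.37 to 9.64 over the arrays), Krt19 (9.23 to 12.80), Krt8 (7.79 to 9.51), Sftpb (7.39 to 8.04) and Krt18 (5.56 to 8.37). Nkx2-1, Sftpc, Scgb1a1, Foxj1 and Cdh1 had a mean below it, although the mean of Cdh1 in A2C12 non-SP cells was above it, at 6.66. Of 7 leukocyte markers, 5 were above it, among them Csf1r (median of 10.27) and Cd14 (9.38), while Ptprc stood at 3.61 to 4.30; of 6 endothelial markers, 1 was above it. Of 7 fibroblast markers, 6 were above it, and the median of that list differed by line, at 9.86 to 11.45 in the A2C12 arrays and 11.34 to 12.64 in the others.

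In SP against non-SP cells, no replication gene and no other gene passed the test in any line or in the mean of the lines (limma, adjusted p under 0.05; 0 of 44 members against 0% of 10916 genes in each of the 4 comparisons). At an unadjusted p under 0.05, 0 members were reached in A2C12, betaD5, cRAF_cMYC or the mean of the lines, against 0.0824%, 1.04%, 0.705% and 1.31% of all genes. With same-numbered SP and non-SP arrays treated as pairs (the replicate block), 0 genes were called as well, and unadjusted p under 0.05 was reached by 1 member in A2C12 (Gmnn; 1.84% of all genes), 3 in betaD5 (Mcm2, Orc6 and Orc1; 10.6%), 5 in cRAF_cMYC (Mcm2, Mcm3, Cdc6, Ung and Orc1; 7.94%) and 5 in the mean of the lines (Mcm2, Hells, Cdc6, Ung and Orc1; 12.5%). These shares of members were at or near those of all genes. The median 95% interval reached 0.45 either side of a difference within 1 line and 0.26 either side of the mean of the lines, on the log2 scale; with the replicate block these were 0.25 and 0.14. The fit without the block ignores that same-numbered arrays deviated together, so its SP intervals were wider and fewer genes reached a low unadjusted p. The SEs and adjusted p-values of SP differences below are from that fit unless stated. The arrays measured bulk RNA of each fraction, in which fewer cells in S phase and less of these transcripts per cell cannot be told apart.

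Over the 45 measured members, the median SP minus non-SP difference was -0.04 in A2C12, 0.04 in betaD5 and 0.09 in cRAF_cMYC (log2), beside 0.01, -0.00 and -0.01 over all genes tested. Members stood above 0 in 9 of 45 cases in A2C12, 26 in betaD5 and 40 in cRAF_cMYC. For the counts by line in this paragraph, the share of all genes in that direction is not given. Single pairs moved further than the lines. In the pair A2C12 2, 44 of the 45 members were lower in SP, against 48.4% of all genes tested. Their median was -0.29, and the exception was Ung, the enzyme that removes uracil from DNA, at 0.15. In the other A2C12 pairs the medians were 0.09 and 0.03. In the pair cRAF_cMYC 1, all 45 members were higher in SP, against 54.3% of all genes tested. Their median was 0.13, and the other cRAF_cMYC pairs had medians of 0.10 and 0.07. The betaD5 pairs had medians of 0.04, 0.12 and -0.11, so neither direction held throughout that line. The list of mitosis genes had medians of 0.20, -0.61 and -0.21 in A2C12 pairs 1, 2 and 3, and in the A2C12 comparison 25 of its 25 measured genes were below 0, with a median of -0.21 and 0 called. Across the 9 pairs, the difference of 1 member correlated with that of another at a median r of 0.44 over 946 gene pairs, and at 0.17 without the pair A2C12 2. Those points share arrays and lines, and the values are a description.

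**Figure D1:**
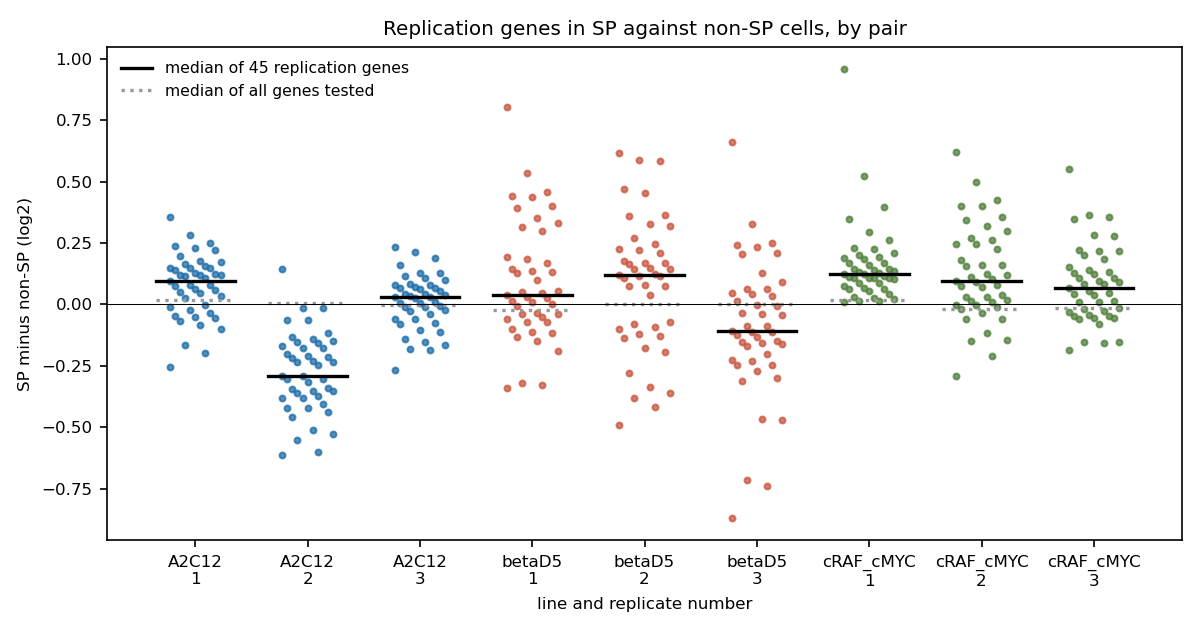
SP minus non-SP difference (log2, y axis) of the 45 measured replication genes in each of the 9 same-numbered pairs (x axis); each point is a gene, the solid bar the median of the 45 genes and the dotted bar the median of all genes tested. The pair A2C12 2 has 44 of 45 genes below 0 (median -0.29; 48.4% of all genes tested), and the pair cRAF_cMYC 1 has all 45 above 0 (median 0.13; 54.3%).

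Among the helicase genes, Mcm2, a subunit of the Mcm ring, had non-SP levels of 11.53, 11.71 and 11.94 in betaD5 arrays 1, 2 and 3 and SP levels of 11.63, 11.99 and 12.17. In cRAF_cMYC its non-SP levels were 11.49, 11.69 and 11.53 and its SP levels 11.66, 12.04 and 11.75. In A2C12 they were 11.07, 10.75 and 10.95 in non-SP and 10.99, 10.57 and 11.06 in SP cells. Mcm2 was thus higher in SP in all 6 betaD5 and cRAF_cMYC pairs and in 1 of 3 A2C12 pairs, while the fractions overlapped in every line. Its difference was 0.20 in betaD5 (SE 0.17), 0.24 in cRAF_cMYC (SE 0.17) and 0.13 in the mean of the lines (SE 0.10, 95% interval -0.08 to 0.34, limma adjusted p = 1, or 0.309 with the replicate block). Mcm4 and Cdc6 were higher in SP in 8 of 9 pairs, the pair A2C12 2 being the exception for both; 5.1% of all genes were higher in at least 8 pairs and 0 members were lower in at least 8, against 4.1% of all genes. Uhrf1, which reads newly copied methylated DNA, was also higher in SP in all 6 betaD5 and cRAF_cMYC pairs, with differences of 0.13 to 0.28, and was at 0.12, -0.60 and -0.18 in A2C12 pairs. Uhrf1 was chosen for mention after its values were seen, and no share of all genes is given for those 6 pairs.

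Gins4, a subunit of the GINS complex, had betaD5 non-SP levels of 10.25, 11.38 and 11.55 and SP levels of 10.55, 10.97 and 10.68. The pair labelled betaD5 1 was higher in SP and the other 2 pairs lower, so the fractions overlapped. The difference was -0.33 (SE 0.28, 95% interval -0.92 to 0.27, limma adjusted p = 1). Without the pairs labelled betaD5 1 and cRAF_cMYC 3 it was -0.64 (SE 0.21, 95% interval -1.09 to -0.19, adjusted p = 0.699, limma). Pairs betaD5 2 and 3, which then remain, are those whose SP arrays had the raised 3'/5' ratios, with SP minus non-SP changes of 0.66 and 0.93 for Gapdh; with that ratio as a covariate in the paired fit the Gins4 difference had the other sign, at 0.11 (adjusted p = 0.834, limma).

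Of the licensing genes, Orc1, the largest subunit of the origin recognition complex, had the smallest unadjusted p of the members in the mean of the lines. Its betaD5 levels were 8.18, 7.53 and 7.46 in non-SP and 8.11, 8.15 and 8.13 in SP cells. Its cRAF_cMYC levels were 7.76, 8.09 and 7.21 in non-SP and 8.16, 8.34 and 7.76 in SP cells. Its A2C12 levels were 7.62, 7.07 and 7.19 in non-SP and 7.52, 6.94 and 7.41 in SP cells. All 3 cRAF_cMYC pairs and betaD5 pairs 2 and 3 were higher in SP, the pair labelled betaD5 1 was 0.07 lower, and A2C12 went both ways. The difference was 0.40 in betaD5, 0.40 in cRAF_cMYC and 0.27 in the mean of the lines (SE 0.15, 95% interval -0.05 to 0.58, limma adjusted p = 1, or 0.282 with the replicate block). Without the pairs labelled betaD5 1 and cRAF_cMYC 3 it was 0.64 in betaD5 (SE 0.23, 95% interval 0.15 to 1.13, adjusted p = 0.737, limma), 0.32 in cRAF_cMYC and 0.32 in the mean of the lines. The remaining betaD5 pairs, 2 and 3, are those with raised 3'/5' ratios in SP; with that ratio as a covariate in the paired fit of all arrays the Orc1 difference in betaD5 was 0.082 (adjusted p = 0.876, limma). The other probe set of Orc1 gave -0.22 in the mean of the lines, so its probe sets disagreed in direction.

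Geminin (Gmnn), the inhibitor of Cdt1, was lower in SP in all 3 A2C12 pairs, at levels of 11.34, 11.06 and 11.31 in non-SP and 11.17, 10.68 and 11.20 in SP cells. The difference was -0.22 (SE 0.20, limma adjusted p = 1) and the fractions overlapped. With the replicate block its unadjusted p was under 0.05 (limma), and it was not called. It was -0.10 in betaD5 and 0.02 in cRAF_cMYC.

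**Figure D2:**
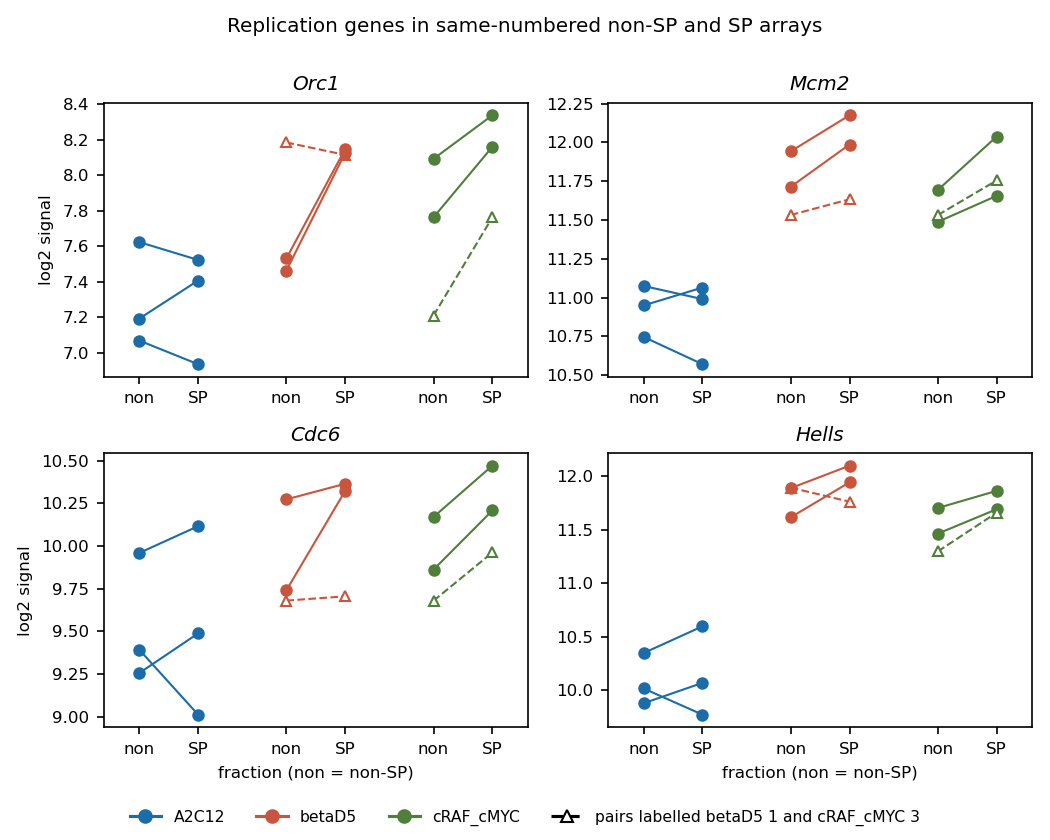
Quantile-normalized log2 signal (y axis) of Orc1, Mcm2, Cdc6 and Hells in non-SP and SP arrays (x axis), with lines joining arrays of the same line and number; dashed lines with open triangles are the pairs labelled betaD5 1 and cRAF_cMYC 3. Mcm2 and Cdc6 were higher in SP in all 6 betaD5 and cRAF_cMYC pairs, Orc1 in 5 of those 6, and A2C12 pairs went both ways for every gene shown.

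Among the polymerase and clamp genes, Rfc4, a subunit of the clamp loader, had the smallest unadjusted p of the members for a difference between lines in the SP effect. In A2C12 its levels were 10.98, 11.21 and 11.08 in non-SP and 11.03, 10.65 and 10.82 in SP cells, whereas in cRAF_cMYC they were 10.34, 10.20 and 10.31 in non-SP and 10.47, 10.70 and 10.50 in SP cells. The cRAF_cMYC fractions did not overlap, and A2C12 pair 1 was 0.05 higher in SP while pairs 2 and 3 were lower. The SP difference was -0.26 in A2C12 (SE 0.18) and 0.27 in cRAF_cMYC (SE 0.18), and the cRAF_cMYC effect exceeded the A2C12 effect by 0.53 (SE 0.26, 95% interval -0.02 to 1.07, limma adjusted p = 1). In the 3 tests of the SP effect between lines, 0 members and 0 genes were called, and at an unadjusted p under 0.05 there were 0 members against 0.229% of all genes for cRAF_cMYC against A2C12, 0.174% for betaD5 against A2C12 and 0.0824% for cRAF_cMYC against betaD5. With the replicate block the unadjusted p was under 0.05 for 4 members in the first of these tests (Mcm2, Mcm3, Tk1 and Uhrf1; 4.42% of all genes), for 1 in the second (Uhrf1; 4.38%) and for 0 in the last (2.37%), and 0 were called. Rfc3, Tk1 and Chaf1b were lower in SP in all 3 A2C12 pairs and higher in all 3 cRAF_cMYC pairs, with effects that differed by 0.48, 0.49 and 0.25 (limma adjusted p = 1 for each); they were chosen for mention after their values were seen. Pcna, the sliding clamp and the member with the highest mean signal, lay between 13.54 and 14.19 in all 18 arrays, with an SP difference of 0.05 in the mean of the lines (SE 0.08, 95% interval -0.12 to 0.22, limma adjusted p = 1).

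Of the nucleotide supply genes, Tk1, the cytosolic thymidine kinase, had A2C12 levels of 11.60, 11.67 and 11.47 in non-SP and 11.56, 11.14 and 11.29 in SP cells, and its difference was -0.25 (SE 0.21, limma adjusted p = 1). Ung differed by 0.18 in the mean of the lines (SE 0.18, limma adjusted p = 1), and was higher in SP in 7 of 9 pairs. In the chromatin group, Hells, a chromatin remodeller needed for DNA methylation, was also higher in SP in 7 of 9 pairs and differed by 0.15 (SE 0.11, limma adjusted p = 1), or by -0.02 when the mean of its probe sets was used. For Ung and Hells the unadjusted p with the replicate block was under 0.05 (limma), and neither was called. Ccne2, which encodes a cyclin E, differed by 0.09 (SE 0.19, 95% interval -0.32 to 0.50, limma adjusted p = 1). Without the pairs labelled betaD5 1 and cRAF_cMYC 3, no member was called in any SP comparison, and the replicate block then called 16 genes in betaD5, 0.147% of all, with 0 members among them and a smallest member adjusted p of 0.0762 (limma). In that paired fit the SP effect differed between cRAF_cMYC and betaD5 at an unadjusted p under 0.05 for 7 members (Pcna, Gins1, Gins4, Orc6, Rfc3, Rfc4 and Tk1). That is 15.9% against 9.9% of all genes, with a smallest adjusted p of 0.265 (limma) and none called. The pairs left in that fit also differed in the Gapdh 3'/5' ratio. Its SP minus non-SP change was 0.66 and 0.93 in betaD5 pairs 2 and 3 and 0.06 and -0.56 in cRAF_cMYC pairs 1 and 2. The part of this ratio in the 7 differences was not tested.

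The lines differed more than the fractions did. Among non-SP arrays, 13 of the 44 tested members (29.5%) were lower and 2 (4.55%) higher in A2C12 than in betaD5, against 15.6% and 13.2% of all genes; 15 members (34.1%) were called in all, against 28.8% (limma, adjusted p under 0.05). Against cRAF_cMYC, 7 members (15.9%) were lower and 3 (6.82%) higher in A2C12, against 12% and 10.4% of all genes, and 10 members (22.7%) were called in all, against 22.3%. The count against cRAF_cMYC was thus near the background. Some fibroblast markers also differed between the lines, with non-SP means of Dcn at 9.82 in A2C12, 12.44 in betaD5 and 13.11 in cRAF_cMYC. Others did not follow that order, with Pdgfra at 10.08, 9.64 and 11.11 and Col1a1 at 12.03, 12.13 and 11.98 in the same groups. The part of these markers in the line differences was not tested. Mcm2, Mcm5, Mcm7, Cdt1, Gins2, Pola1 and Hells were lower in A2C12 than in both lines, and Rfc4 and Dut were higher than in both. Between betaD5 and cRAF_cMYC, 0 members and 0% of all genes were called, with 3 members and 2.67% of all genes at an unadjusted p under 0.05.

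The median difference of the 45 measured members was -0.43 for A2C12 minus betaD5 and -0.27 for A2C12 minus cRAF_cMYC, beside -0.04 and -0.03 over all genes tested. These values are on quantile-normalized signal, which sets every array to 1 distribution. In the deposited values the median gene was itself 0.71 lower in A2C12 than in betaD5 and 0.45 lower than in cRAF_cMYC; 35 members were then called, with 0 higher (55.2% of all genes called), and 18 against cRAF_cMYC, with 0 higher (28.5%). On the deposited scale 3.83% of the genes called against betaD5 and 8.03% of those called against cRAF_cMYC were higher in A2C12, instead of 46% and 46.3%. Relative to the median gene, the tested members stood at -0.38 and -0.27 after quantile normalization and at -0.42 and -0.31 in the deposited values. All members called lower after quantile normalization were also called lower in the deposited values; on median-centred arrays Ccne2 against betaD5 (-0.88, adjusted p = 0.0602, limma) and Pola1 against cRAF_cMYC (-0.54, adjusted p = 0.076, limma) were not called. The calls of higher members are relative to the other genes of the array, since none was called higher in the deposited values. When both pairs that resemble the other line were left out, 24 members were called against betaD5 (42% of all genes), 1 of them higher (20.2%) and 23 lower (21.8%), and 13 were called against cRAF_cMYC (32%), 3 of them higher (14.8%) and 10 lower (17.2%).

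**Figure D3:**
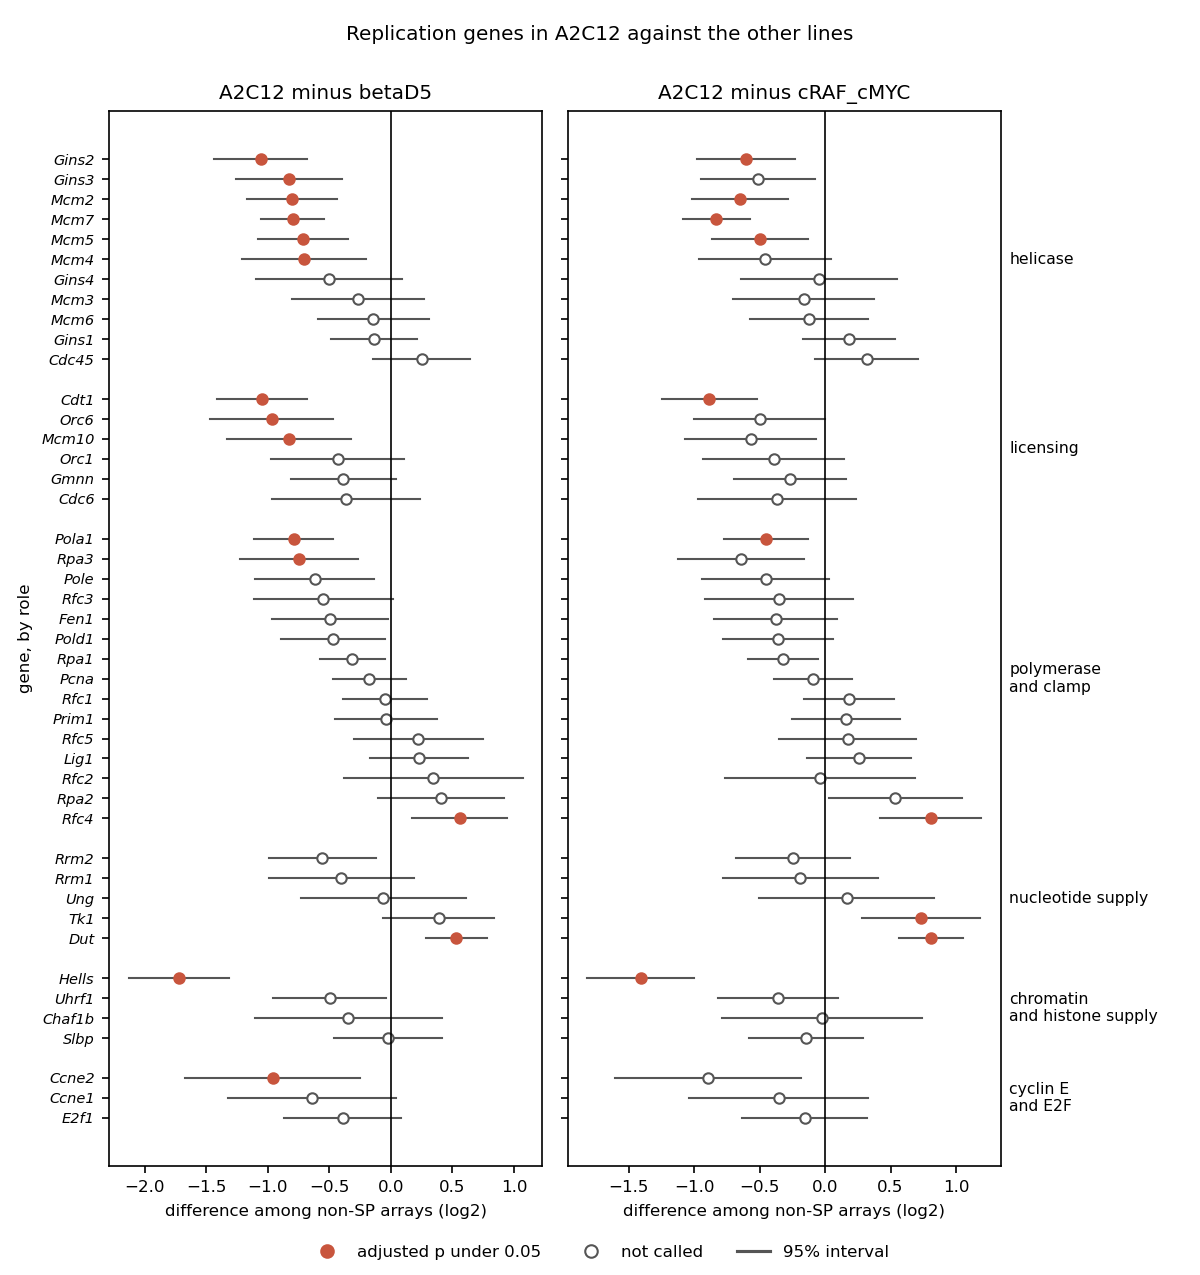
Difference among non-SP arrays (log2, x axes) of A2C12 minus betaD5 (left) and A2C12 minus cRAF_cMYC (right) for the 44 tested replication genes, ordered by role (y axis), with 95% intervals; filled points have an adjusted p under 0.05. Filled points left of 0 number 13 and 7, and those right of 0 number 2 and 3.

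Of the helicase genes, 6 of 11 were lower in A2C12 than in betaD5 (median -0.71), against 15.6% of all genes, and 4 of 11 were lower than in cRAF_cMYC (median -0.46), against 12%. Mcm7 had non-SP levels of 12.96, 12.73 and 12.78 in A2C12, 13.66, 13.53 and 13.67 in betaD5 and 13.62, 13.78 and 13.58 in cRAF_cMYC. Its SP levels were 13.08, 12.59 and 12.85, then 13.54, 13.61 and 13.63, and 13.69, 13.76 and 13.39. Every A2C12 array, SP or non-SP, was below every array of the other lines. Mcm7 was 0.80 lower than in betaD5 on the log2 scale (1.74-fold lower; difference -0.80, SE 0.12, adjusted p = 0.000208, limma) and 0.83 lower than in cRAF_cMYC (1.78-fold lower; difference -0.83, SE 0.12, adjusted p = 0.000183, limma).

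Gins2, of the GINS complex, had non-SP levels of 9.98, 9.90 and 9.83 in A2C12, 10.69, 11.04 and 11.15 in betaD5 and 10.59, 10.29 and 10.65 in cRAF_cMYC. Its A2C12 arrays again lay below all others in both fractions, with a highest A2C12 value of 9.98 and a lowest value elsewhere of 10.17. The differences were -1.06 (SE 0.18, adjusted p = 0.000452, limma) and -0.60 (adjusted p = 0.0226, limma). Mcm2 and Mcm5 differed by -0.81 and -0.71 from betaD5 and by -0.65 and -0.50 from cRAF_cMYC, all 4 called. Mcm4 (-0.71) and Gins3 (-0.83) were called against betaD5 and stood at -0.46 and -0.51 against cRAF_cMYC, which was not called. The ring was not uniformly lower in A2C12: Mcm3 stood at -0.27 and -0.16 and Mcm6 at -0.14 and -0.12, neither called, and Cdc45, the partner of the ring, at 0.25 and 0.32, also not called. For Mcm3, other probe sets differed in the other direction, and another Cdc45 probe set stood at -0.05 and -0.02.

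Of the licensing genes, Cdt1, which loads the Mcm ring, had non-SP levels of 12.24, 12.05 and 12.01 in A2C12, 13.08, 13.12 and 13.25 in betaD5 and 13.09, 12.80 and 13.07 in cRAF_cMYC. The highest A2C12 array of either fraction was at 12.46 and the lowest of the other lines at 12.74. The differences were -1.05 (SE 0.17, 2.06-fold lower, adjusted p = 0.000397, limma) and -0.88 (SE 0.17, 1.85-fold lower, adjusted p = 0.00178, limma). Orc6, a small subunit of the origin recognition complex, was at 10.29, 10.50 and 10.29 in A2C12 and at 10.91, 11.46 and 11.62 in betaD5, a difference of -0.97 (SE 0.23, adjusted p = 0.00643, limma). Against cRAF_cMYC it stood at -0.50 (adjusted p = 0.144, limma). Mcm10, which helps to activate the helicase, was called against betaD5 (-0.83) and stood at -0.57 against cRAF_cMYC, not called. Orc1, Cdc6 and Gmnn were called against neither line, at -0.27 to -0.43. Licensing as a group had 3 of 6 called lower against betaD5 (median -0.63; 15.6% of all genes) and 1 of 6 against cRAF_cMYC (median -0.45; 12% of all genes).

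Of the polymerase and clamp genes, 2 of 15 were lower and 1 higher against betaD5 (median -0.17), beside 15.6% and 13.2% of all genes, and 1 was lower and 1 higher against cRAF_cMYC (median -0.09), beside 12% and 10.4%. Pola1, the catalytic subunit of the polymerase that starts new strands with primase, had non-SP levels of 9.59, 9.58 and 9.77 in A2C12, 10.44, 10.39 and 10.48 in betaD5 and 10.00, 10.32 and 9.98 in cRAF_cMYC. The SP levels were 9.74, 9.23 and 9.74 in A2C12, 10.34, 10.30 and 10.33 in betaD5 and 10.01, 10.27 and 10.20 in cRAF_cMYC. Within each fraction the lines did not overlap, with A2C12 lowest and betaD5 highest. Pola1 differed by -0.79 from betaD5 (adjusted p = 0.00119, limma) and by -0.45 from cRAF_cMYC (adjusted p = 0.0406, limma). Rpa3, which binds single-stranded DNA with Rpa1 and Rpa2, was called lower against betaD5 (-0.75), while Rpa2 stood at 0.41 and was not called. Another Rpa2 probe set above the filter level stood further up, at 1.47 against betaD5 and 1.88 against cRAF_cMYC.

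Rfc4 went the other way. Its non-SP levels of 10.98, 11.21 and 11.08 in A2C12 lay above the 10.14, 10.70 and 10.74 of betaD5 and the 10.34, 10.20 and 10.31 of cRAF_cMYC. It differed by 0.56 (adjusted p = 0.0303, limma) and 0.81 (adjusted p = 0.00477, limma). This call did not hold throughout: the other Rfc4 probe set stood at -0.02 and 0.21, the deposited values gave -0.18 (adjusted p = 0.562, limma) and 0.31 (adjusted p = 0.379, limma), and among SP arrays the differences were 0.44 (adjusted p = 0.0801, limma) and 0.28 (adjusted p = 0.284, limma). The clamp Pcna (-0.17 and -0.09), the primase gene Prim1 (-0.04 and 0.16) and the ligase gene Lig1 (0.23 and 0.26) were not called.

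Of the nucleotide supply genes, Dut, whose dUTPase keeps uracil out of DNA, was the only member with every A2C12 array above every array of the other lines. Its non-SP levels were 12.55, 12.89 and 12.75 in A2C12, 12.09, 12.20 and 12.30 in betaD5 and 11.78, 12.09 and 11.88 in cRAF_cMYC, and its SP levels were 12.63, 12.74 and 12.73, then 12.09, 12.12 and 12.26, and 11.92, 12.19 and 12.01. It differed by 0.53 (SE 0.11, 1.45-fold higher, adjusted p = 0.00301, limma) and 0.81 (SE 0.11, 1.76-fold higher, adjusted p = 0.00015, limma); in the deposited values, where the median gene was lower in A2C12, it stood at -0.18 and 0.36, neither called. Tk1 was called against cRAF_cMYC (0.73, adjusted p = 0.0222, limma) and stood at 0.39 against betaD5; its deposited values gave 0.24 against cRAF_cMYC and -0.36 against betaD5, neither called. Rrm1 and Rrm2, the subunits of ribonucleotide reductase, were not called, and their probe sets disagreed: against cRAF_cMYC, another Rrm1 probe set stood at 1.15 where the one used stood at -0.19, and another Rrm2 probe set at 0.83 where the one used stood at -0.24.

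Of all members, Hells differed most. Its non-SP levels were 10.35, 10.02 and 9.88 in A2C12, 11.89, 11.62 and 11.89 in betaD5 and 11.46, 11.70 and 11.30 in cRAF_cMYC. Its SP levels were 10.60, 9.77 and 10.07 in A2C12, 11.76, 11.95 and 12.10 in betaD5 and 11.69, 11.87 and 11.66 in cRAF_cMYC. The highest A2C12 array was at 10.60 and the lowest array elsewhere at 11.30. Hells was 3.3-fold lower in A2C12 than in betaD5 (difference -1.72, SE 0.19, adjusted p = 1.51e-05, limma) and 2.66-fold lower than in cRAF_cMYC (difference -1.41, SE 0.19, adjusted p = 0.000109, limma). A second Hells probe set above the filter level stood at -1.02 and -0.66; with the mean of all its probe sets, which takes in 1 below the filter level, the cRAF_cMYC difference was -0.57 (adjusted p = 0.0753, limma) and no longer called. The other chromatin genes, Uhrf1 (-0.50 and -0.36), Chaf1b (-0.35 and -0.02) and Slbp (-0.02 and -0.15), were not called. Another Uhrf1 probe set above the filter level had the other direction, at 0.30 and 0.39. Among the cyclin E and E2F genes, Ccne2 was called against betaD5, at 7.99, 7.32 and 7.17 in A2C12 and 8.13, 8.53 and 8.69 in betaD5 (difference -0.96, SE 0.33, adjusted p = 0.0421, limma), and stood at -0.90 (adjusted p = 0.0664, limma) against cRAF_cMYC. Ccne1 (-0.64 and -0.36) and E2f1 (-0.39 and -0.16) were not called.

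**Figure D4:**
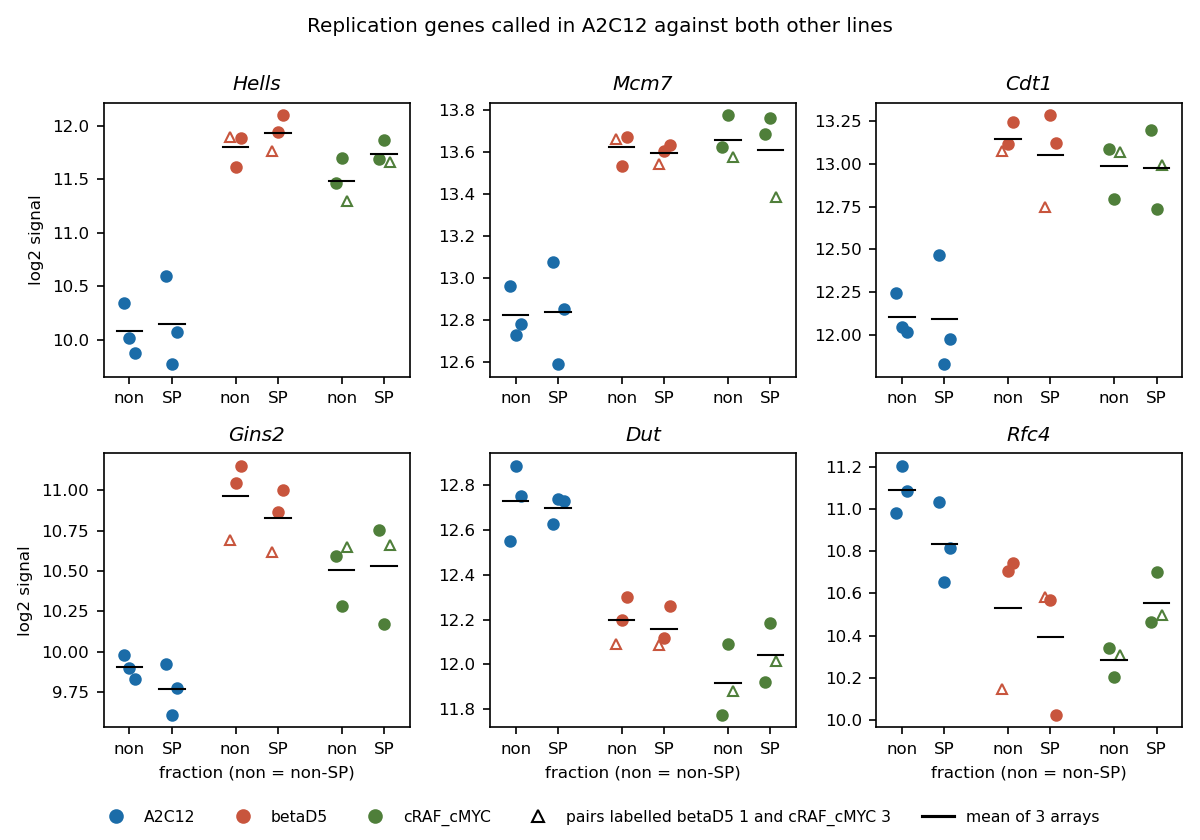
Quantile-normalized log2 signal (y axis) of 6 replication genes called in A2C12 against both other lines, in non-SP and SP arrays of each line (x axis); each point is an array, bars are means of 3 arrays and open triangles are the pairs labelled betaD5 1 and cRAF_cMYC 3. All 6 A2C12 arrays lie below the other 12 for Hells, Mcm7, Cdt1 and Gins2 and above them for Dut, while Rfc4 overlaps in the SP fraction.

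Counted without a model, 20 members were lower and 4 higher in all 3 A2C12 non-SP arrays than in all 3 of betaD5, against 25% and 20.8% of all genes, and 16 were lower and 5 higher than in all 3 of cRAF_cMYC, against 21.5% and 18.8%. Over both fractions, all 6 A2C12 arrays were below the other 12 for 9 members (Mcm2, Mcm5, Mcm7, Mcm10, Cdt1, Gins2, Rpa3, Pola1 and Hells), against 11.3% of all genes, and above them for 1 (Dut), against 10.5%. Between betaD5 and cRAF_cMYC the non-SP arrays did not overlap for 4 members, each higher in betaD5 (Gins2, Pola1, Rfc1 and Dut), against 2.6% of all genes, and for 0 in the other direction, against 2.45%. Among SP arrays the same fit called 18 members against betaD5 (1 higher, 17 lower; 28.5% of all genes) and 16 against cRAF_cMYC (1 higher, 15 lower; 24.7%). Over the mean of both fractions, a fit with each same-numbered pair as a random block called 17 (30.7% of all genes) and 13 (25.1%). Among the called members with another probe set above the filter level, 11 of 12 such probe sets against betaD5 and 11 of 11 against cRAF_cMYC had the same direction, Rfc4 against betaD5 being the exception. The count of 10 members called against cRAF_cMYC changed when arrays were left out: it was 5 without the non-SP array A2C12 2 or without both arrays of that pair, and 6 without the non-SP array cRAF_cMYC 1, without both arrays of that pair, or without both arrays of A2C12 3. The shares of all genes called in those fits are not given here, so this fall cannot be set against the background.

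Between betaD5 and cRAF_cMYC, the outcome rested on the pairs labelled betaD5 1 and cRAF_cMYC 3. With them, no member was called and the median of the 45 measured members was 0.20, beside 0.02 over all genes tested. Without them, 8 members (18.2%) were called, 7 higher (15.9%) and 1 lower (2.27%) in betaD5, against 21.4%, 8.91% and 12.5% of all genes (limma, 2 arrays in each of those groups). The higher members were Gins4 (1.03, adjusted p = 0.00397), Chaf1b (1.01, adjusted p = 0.00831), Orc6 (0.89, adjusted p = 0.00935), Ccne1 (0.78, adjusted p = 0.0184), Gins2 (0.66, adjusted p = 0.0276), Mcm4 (0.62, adjusted p = 0.0196) and E2f1 (0.58, adjusted p = 0.0387), and the lower one was Rfc2 (-0.68, adjusted p = 0.0345), all by limma.

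The single arrays of these genes, in non-SP cells, were as follows. For Gins4, betaD5 non-SP arrays 2 and 3 stood at 11.38 and 11.55 and the array labelled betaD5 1 at 10.25, while cRAF_cMYC non-SP arrays 1 and 2 were at 10.77 and 10.11 and the array labelled cRAF_cMYC 3 at 10.95. For Chaf1b, a subunit of the factor that places histones on new DNA, betaD5 arrays 2 and 3 were at 9.42 and 9.36 and array 1 at 8.07, while cRAF_cMYC arrays 1 and 2 were at 8.60 and 8.16 and array 3 at 9.12. For Ccne1, the other cyclin E gene, the array labelled betaD5 1 was at 8.74 beside 9.77 and 10.10 in betaD5, and cRAF_cMYC was at 9.11, 9.21 and 9.43. In Gins4, Chaf1b and Ccne1 the array labelled betaD5 1 lay below both other betaD5 arrays and the array labelled cRAF_cMYC 3 above both other cRAF_cMYC arrays. Such a pattern is largely fixed by taking genes called only without those arrays, and is no separate result. For Rfc2, the member called lower, the array labelled betaD5 1 was at 10.31, between 10.42 and 10.11 in betaD5 arrays 2 and 3. Gins4, Chaf1b and Orc6 were called on the deposited and on the median-centred values as well; Mcm4, Ccne1 and E2f1 on neither, Gins2 on the deposited ones only and Rfc2 on the centred ones only. Chaf1b, Ccne1, Mcm4, E2f1 and Rfc2 were chosen for these values after they were seen. Without those pairs, the members lower in A2C12 than in both lines were Mcm2, Mcm7, Cdt1, Gins2, Rpa3, Pola1, Rfc3, Hells and Ccne2, and Dut was higher than in both.

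**Figure D5:**
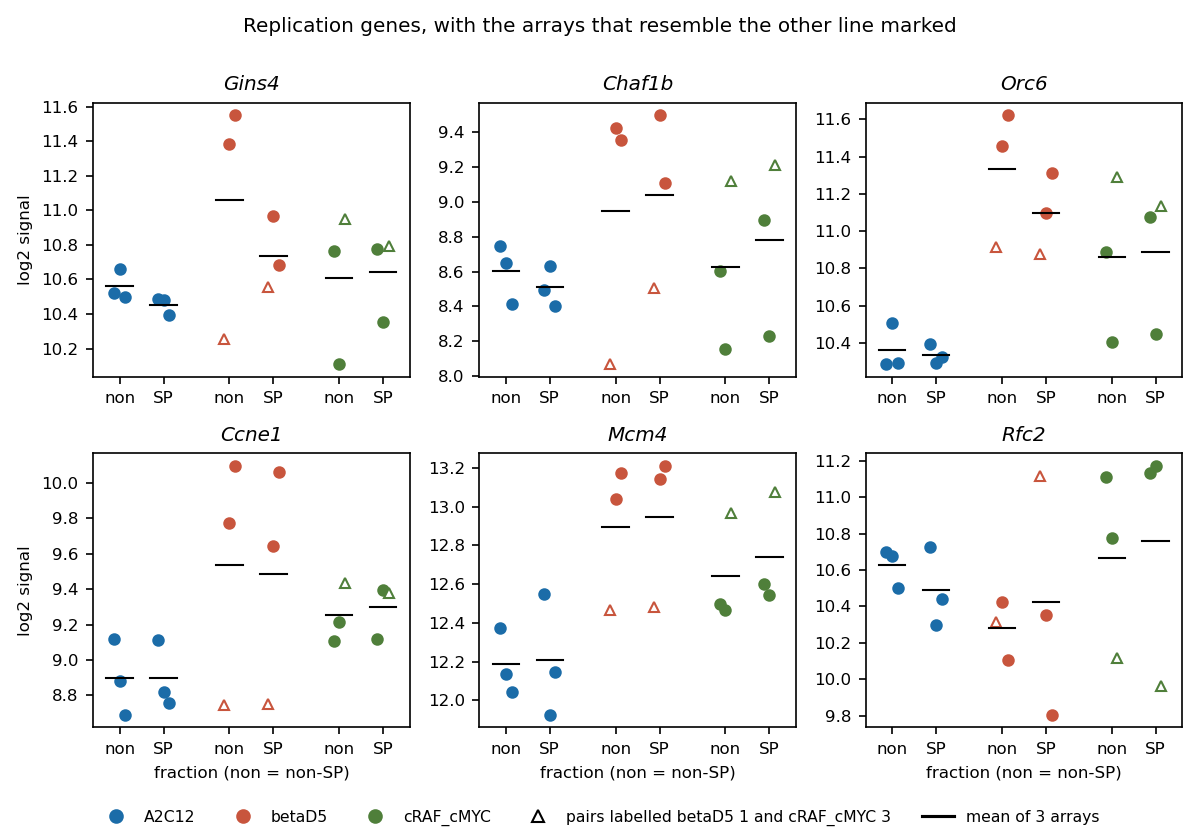
Quantile-normalized log2 signal (y axis) of 6 replication genes called between betaD5 and cRAF_cMYC without the pairs labelled betaD5 1 and cRAF_cMYC 3, in non-SP and SP arrays of each line (x axis); points are arrays, bars are means of all 3 arrays and open triangles mark those pairs. For Gins4 the open triangle of betaD5 non-SP is at 10.25, below 11.38 and 11.55, and that of cRAF_cMYC non-SP at 10.95, above 10.77 and 10.11.

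The other genes of the cell cycle came from lists chosen by function, and their counts are to be read against the 28.8% of all genes called for A2C12 against betaD5 and the 22.3% called against cRAF_cMYC. Of 47 further replication genes tested, 12 were called for A2C12 against betaD5 (3 higher, 9 lower) and 11 against cRAF_cMYC (4 higher, 7 lower). Msh6, of mismatch repair, differed by -0.97 and -0.87 (against betaD5 and cRAF_cMYC, in that order here and below, each called unless stated), Dbf4, the activator of the kinase that fires origins, differed by -1.07 and -0.90, Dck, the deoxycytidine kinase, by -1.43 and -1.21, and Esco2, which ties sister chromatids together in S phase, by 1.96 and 1.64, the last also called higher in the deposited values (1.28 and 1.19). Of 28 tested G1/S regulators, 9 were called against betaD5 (1 higher, 8 lower) and 5 against cRAF_cMYC (1 higher, 4 lower). E2f7, an E2F that represses, differed by -1.68 and -1.37, Cdc25a, a phosphatase that activates cyclin-dependent kinases, by -1.29 and -1.16, and Mycn by -2.47 and -2.42. The A2C12 means of Mycn, 6.35 in non-SP and 6.40 in SP cells, were under the filter level of 6.54. Mycn thus passed the filter only through the other lines, and the size of its difference is uncertain. Cyclin D1 (Ccnd1) differed by 0.90 and 0.97, and by 0.21 and 0.53 in the deposited values, neither called there. Of 25 mitosis genes tested, 5 were called against betaD5 (1 higher, 4 lower) and 4 against cRAF_cMYC (0 higher, 4 lower), with Kif20a at -1.41 and -1.43 and Anln at -0.87 and -0.77. With both odd pairs (betaD5 1, cRAF_cMYC 3) left out, the counts against betaD5 and cRAF_cMYC were 18 and 14 for the replication list, 12 and 10 for the G1/S list and 8 and 4 for the mitosis list, beside 42% and 32% of all genes. None of the 3 lists had a gene called in SP against non-SP cells or, with all 18 arrays, between betaD5 and cRAF_cMYC. Between those lines without the same pairs, 6 further replication genes (4 higher and 2 lower in betaD5), 4 G1/S regulators (3 higher, 1 lower) and 0 mitosis genes were called, beside 21.4% of all genes (8.91% higher, 12.5% lower). Rnaseh2a, of the enzyme that removes ribonucleotides from DNA, then differed by 1.05, Samhd1, which breaks down deoxynucleotides, by 0.82, and Topbp1, a scaffold for origin firing and the damage checkpoint, by -0.86. Of the G1/S regulators, the cyclin D genes Ccnd2 and Ccnd3 differed by 0.95 and 0.80, Tfdp1, a partner of E2F factors, by 0.76 and Fbxw7, which marks cyclin E for destruction, by -0.84. Whether the lines differed in the share of cells in S phase was not measured, and its part in these differences was not tested.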

How the data were processed

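RNA of 18 cell samples, 200 ng each, was labelled and hybridised to Affymetrix 3' arrays, per the labels' protocols. The authors' deposited table holds log2 signal for 45101 probe sets, made with Affymetrix Expression Console, per the submitters' processing notes; its version and the normalization are not given in the sources used here. Deposited array medians ran from 5.80 to 6.72 (A2C12 5.80 to 6.06), so the values were quantile-normalized in limma 3.58.1 (R 4.3.3), with deposited and median-centred values as alternatives. Precision is limited by 3 arrays a group. The 64 control probe sets were left out; 34945 probe sets had 1 gene symbol and 932 several, and 34741 matched a current RefSeq symbol. Each gene took its probe set with the highest mean, and genes in the lowest 40% by mean signal (level under 6.54) were not tested. A model with 6 groups, 12 residual degrees of freedom and a mean trend was fitted to all 10916 genes, p-values were adjusted over all of them (Benjamini-Hochberg), and a gene is called at an adjusted p under 0.05. A log2 difference of groups is a difference of means. The fit was tested on simulated data.

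Same-numbered SP and non-SP arrays deviated together from their group means (r from 0.42 to 0.95 in the 9 pairs), so a fit with line and number as a block (6 residual degrees of freedom) was also run; the labels do not say what the numbers mark. Members and lists were chosen with earlier results of these data known. Members described in full were those with the smallest p in each comparison (3 for SP, 4 for lines), the smallest p of each role in the mean of the lines, and the highest and lowest mean signal; others were chosen after their values were seen, where so stated. Other alternatives were the filter, the probe set rule, no trend, each array or pair left out, and the SP arrays or both fractions for the lines.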

Additional observations from a re-analysis of the deposited data

How the results depend on the processing

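No SP comparison called a member under any alternative, with or without the replicate block, where the median difference of the mean of the lines was 0.02. In cRAF_cMYC the median SP difference was 0.14 on centred arrays and ranged from 0.083 to 0.16 as arrays or pairs were left out. Hells in the mean of the lines was -0.022 with all probe sets averaged. Pcna ranged from -0.012 to 0.094 and Ccne2 from -0.040 to 0.20 as arrays or pairs were left out, with Pcna at -0.0024 without the pair betaD5 1. Gins4 in betaD5 was 0.11 with the replicate block and the 3'/5' covariate. The causes were not tested.

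Members called for A2C12 minus betaD5 were 35 in the deposited values and 24 without the pairs labelled betaD5 1 and cRAF_cMYC 3, with a deposited median of -1.14. For A2C12 minus cRAF_cMYC they were 18 in the deposited values, 16 among SP arrays and 5 to 12 as arrays or pairs were left out. No share of all genes is given here for the fits with single arrays or single pairs left out. The median was -0.75 in the deposited values, -0.37 on centred arrays, -0.15 with all probe sets averaged, -0.40 among SP arrays and -0.36 over both fractions. For betaD5 minus cRAF_cMYC, 8 members were called without both of those pairs, and 0 in the settings that kept either pair. Without both pairs, 5 of the 44 tested members were called in the deposited values, beside 1221 of all 10916 genes. On centred arrays 4 members were called, beside 1891 of all genes.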
